A study of Homo sapiens with 3 samples.

Results

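The genes described here are the cyclins, the cyclin-dependent kinases (CDKs) and the CDK inhibitors, found by a rule on gene symbols that uses no measured value. The symbol rule found 55 genes among 39320 gene rows on the assembled chromosomes. They were 26 cyclins, 21 CDKs and 8 inhibitors, spread over 19 chromosomes. RNA-seq was performed on 3 libraries, labelled wild type and HepG2, a human liver cancer cell line, with no treatment and no second condition. Nothing in the labels says that the replicates came from separate cultures, so the spread between them may be technical.

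Cyclins are named for proteins whose amount rises and falls through the cell cycle, and each activates 1 or more CDKs by binding to them. D cyclins with CDK4 and CDK6 act in G1, E and A cyclins with CDK2 act at the entry into and passage through S phase, and B cyclins with CDK1 drive mitosis. The INK4 inhibitors bind CDK4 and CDK6, whereas the CIP/KIP inhibitors act more broadly and are best known for CDK2. Another set of cyclins and CDKs does not drive division but phosphorylates RNA polymerase II or takes part in splicing. RNA from a mixed culture averages over cells in all phases, so a level of a phase-specific gene cannot be told apart from the share of cells in that phase.

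Levels are given in TPM, a unit scaled for transcript length and library total, and hence can be compared between genes. The number of reads behind a TPM is unknown, since the deposited tables hold no counts, and counting errors were not computed. Coverage divided by FPKM reached at most 11.5 to 13.3 per library, a ratio that grows with depth. The liver label was checked first. Of 8 genes that define hepatocytes, 0 reached 1 TPM in every library, 5 (ALB, APOA1, APOB, SERPINA1 and FGB) were listed at 0 in each, and the summed level of the list lay between 0.0571 and 0.244 TPM. The epithelial list summed to between 4517 and 4772 TPM, of which KRT8 and KRT18 made up nearly all, while the adhesion genes of that list were low, with EPCAM at 0 TPM in replicates 1 and 2 and 0.0901 TPM in replicate 3, and CDH1 at a mean of 1.02 TPM. The mesenchymal list summed to between 669 and 756 TPM, of which VIM alone, with a mean of 694 TPM, made up nearly all. The matrix genes of that list were low, with means of 6.93 TPM for COL1A1 and 0.908 TPM for FN1. Neither blood nor endothelial markers reached 1 TPM. The labels were therefore not borne out by hepatocyte markers, and every value below holds for the libraries labelled HepG2.

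All but a few of the genes were expressed. At least 1 TPM was reached in every library by 49 of the 55 genes, against 33.8% of all gene rows and 59.5% of protein-coding rows. At least 10 TPM was reached in every library by 41 of the 55, against 20.7% of all rows and 40.4% of protein-coding rows. These genes were chosen as a family that dividing cells use, so the counts describe the family and test nothing. CDKN2A, CCNB1, CDK4, CDK16, CDK2, CDK1, CCND3, CCNB2 and CCND1 exceeded 100 TPM in every library. The 49 genes whose mean was 1 TPM or more had a median percentile of 73.7 among 13753 genes at that level, with 9 above the 90th percentile and 12 below the 50th.

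**Figure D1:**
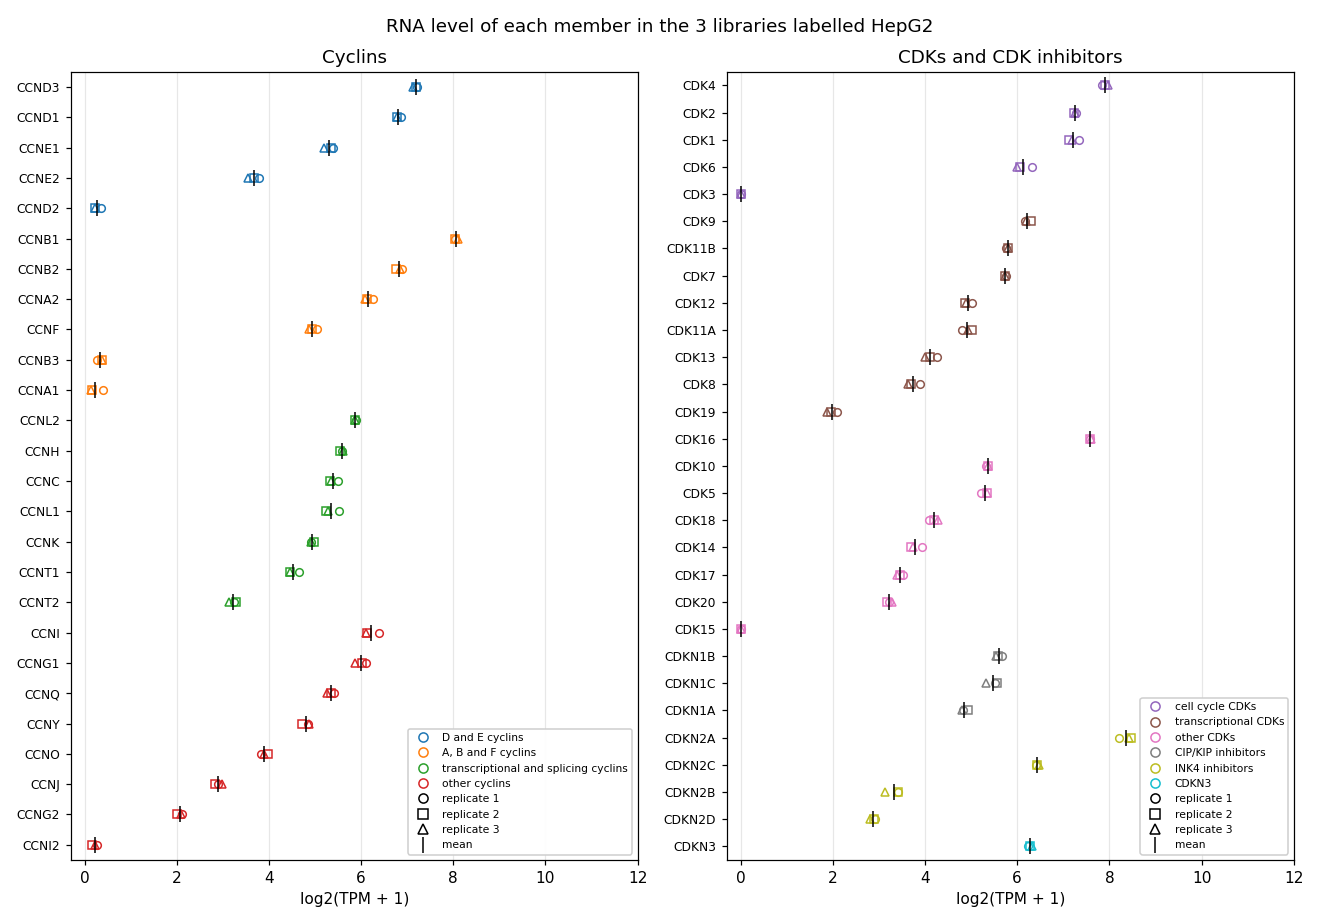
RNA level of each gene as log2(TPM + 1), with cyclins at the left and CDKs and inhibitors at the right. Open symbols are the 3 libraries, black ticks their means and colours the roles. CDKN2A, with 329 TPM, lies farthest to the right, and CDK3 and CDK15 lie at 0.

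Replicates lay close together. None of the 55 genes had a range of log2(TPM + 1) between libraries above 1. The same held for the 49 whose mean reached 1 TPM, against 1.26% of all genes at that level. With so low a share, a set of 49 genes would often hold none, so this does not set the family apart. Below 1 TPM the pseudocount holds the range down. The widest range, 0.33 on that scale, belonged to CDK6. The median coefficient of variation was 5.48% over the 42 genes whose mean reached 10 TPM, from 0.621% for CCNL2 to 12.8% for CDK6, beside 4.88% over all 8419 genes at that level. Replicate 1 was the highest library for 28 of 49 expressed genes, replicate 2 for 9 and replicate 3 for 12. Of all genes above 1 TPM, 58.1% were highest in replicate 1, so the genes of this family were like the rest in that respect. When the 53 genes above 0 were ordered by mean TPM, the libraries of 34 of 52 neighbouring pairs overlapped. Most steps in the order are thus smaller than the spread between libraries. CDKN2A, CCNB1, CDK4, CDK16 and CDK2 stood in this order by TPM with no overlap between neighbours.

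The D cyclins, which link growth signals to the cell cycle, differed widely among themselves. CCND3 had 148, 146 and 140 TPM in replicates 1, 2 and 3, a mean of 145 ± 4.46 TPM (SD, n = 3). CCND1 had 116, 109 and 108 TPM, a mean of 111 ± 4.51 TPM (SD, n = 3). CCND2 was at 0.277, 0.176 and 0.177 TPM, so it was far below both of its paralogs in each library. The log2 ratio of CCND1 to CCND2 was 6.53 ± 0.01 (SD, n = 3), with 1 added to each TPM. Because CCND2 lies below 1 TPM, the added 1 understates the difference and also narrows its SD. The coefficient of variation of CCND2 itself was 27.6%. CCND1 stood below CCND3 in each library by TPM, with a log2 ratio of -0.38 ± 0.04 (SD, n = 3), whereas the coverage values put it far higher, at a log2 ratio of 2.99. The order of CCND1 and CCND3 therefore rests on the unit.

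E cyclins, the partners of CDK2 at the start of S phase, were lower. CCNE1 had 41.1, 39.4 and 35.5 TPM in replicates 1, 2 and 3, and CCNE2 had 12.9, 11.9 and 10.6 TPM. All libraries of CCNE1 lay above all libraries of CCNE2, with a log2 ratio of 1.63 ± 0.03 (SD, n = 3). The deposited row of CCNE2 overlaps that of INTS8, a gene on the opposite strand with 26.5 TPM, over 14441 of its 16448 bp.

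Of the S phase and mitotic cyclins, CCNB1 was the highest, followed by CCNB2 and CCNA2. CCNB1, the main cyclin of mitotic CDK1, had 262, 260 and 273 TPM in replicates 1, 2 and 3, or 265 ± 6.98 TPM (SD, n = 3). CCNB2 had 118, 107 and 113 TPM, below CCNB1 in each library with a log2 ratio of CCNB1 to CCNB2 of 1.23 ± 0.07 (SD, n = 3). CCNA2, which acts with both CDK2 and CDK1, had 75.4, 69.2 and 67.0 TPM. The deposited row of CCNA2 shares 578 bp with EXOSC9, a gene on the opposite strand that had 52.9 TPM. CCNF, the F-box subunit of a ubiquitin ligase and not a kinase activator, had 29.7 ± 1.87 TPM (SD, n = 3). The germline cyclins CCNA1 and CCNB3 had means of 0.181 and 0.264 TPM. CCNA1 was at 0.320 TPM in replicate 1 and at 0.117 and 0.106 TPM in the others. The A and B cyclins CCNA2, CCNB1 and CCNB2 together summed to 448 ± 10.1 TPM (SD, n = 3), beside 256 ± 8.48 TPM for the D cyclins and 50.4 ± 3.95 TPM for the E cyclins.

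Sequences of the start regions of mitotic genes are shown because CCAAT boxes, bound by NF-Y, and the CHR element, bound by the MuvB core of the DREAM and B-MYB complexes, are the known promoter features of genes expressed in G2 and mitosis. In RefSeq (GRCh38.p14), 50 of the 55 genes were matched to a window of 250 bases before and 50 bases after the annotated start. For 12 of them the start equals the 5′ end of the deposited row, and for 21, these included, it lies within 50 bases of that end. The other windows start farther from the measured row. Where a gene had several windows, as 17 did, the nearest to that end was used. Of the 5 D and E cyclins only 2, CCND3 and CCNE1, were matched. Below are the bases just before the start of 3 genes, CDK1 (chr10:60778161-60778330, plus strand), CCNA2 (chr4:121823884-121823983, minus strand) and CCNB2 (chr15:59105016-59105145, plus strand), each 5′ to 3′ on the strand of the gene. Capitals mark CCAAT or its complement ATTGG, and TTTGAA, the letters searched for the CHR element. Other forms of that element were not searched, so an unmarked sequence may still hold one. Bases more than 50 after the start were not searched either, so boxes or elements farther downstream would be missed. Whether a marked TTTGAA is the known element of its gene was not tested.
CDK1: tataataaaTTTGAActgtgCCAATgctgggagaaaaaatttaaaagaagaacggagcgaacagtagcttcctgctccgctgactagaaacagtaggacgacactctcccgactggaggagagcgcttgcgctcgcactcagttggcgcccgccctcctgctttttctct
CCNA2: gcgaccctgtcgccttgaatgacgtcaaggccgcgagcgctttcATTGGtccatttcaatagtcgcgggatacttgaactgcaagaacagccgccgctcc
CCNB2: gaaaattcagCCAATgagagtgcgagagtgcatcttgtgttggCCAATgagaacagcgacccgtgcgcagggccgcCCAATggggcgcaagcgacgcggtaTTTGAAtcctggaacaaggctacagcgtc

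In the window of CCNB2, CCAAT boxes began 244, 120, 87 and 54 bases before the start, and the CHR letters 29 bases before it. The last 3 boxes followed each other in steps of 33 bases. In the window of CCNB1, boxes began 87 and 55 bases before the start, a step of 32 bases, and TTTGAA was absent. CCNA2 held 1 box at 56 bases, on the other strand. The window of CDK1 held 1 box at 150 bases and the CHR letters at 161 bases before the start. Matches of CDK1 downstream of its window were not looked for, so these need not be its functional sites. CCNF, the lowest of the expressed genes in this group, held 4 boxes and the CHR letters at 85 bases.

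Across the family, a CCAAT box was found on either strand in the windows of 20 of 50 genes, beside 36.2% of 22489 gene windows of the same length. By role, 4 of 6 windows of A, B and F cyclins held one, and those without were the germline cyclins CCNA1 and CCNB3. Among the cyclins of transcription and splicing, 5 of 7 windows held one, although these genes are not known for mitotic expression. TTTGAA was in 6 of 50 windows (CCNB2, CCNF, CCNC, CDK1, CDK19 and CDKN3), beside 14.9% of all. E2F letters, searched on both strands as TTT, then 2 bases that are each C or G, then CGC, were in 5 of 50, beside 3.54%. TATAAA was in 2 of 50 (CDK15 and CCNI2), beside 11.7%. The GC box GGGCGG was in 38 of 50, beside 47.0%. These matches are letters in a window and are not evidence of binding, and no test was made on them.

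**Figure D2:**
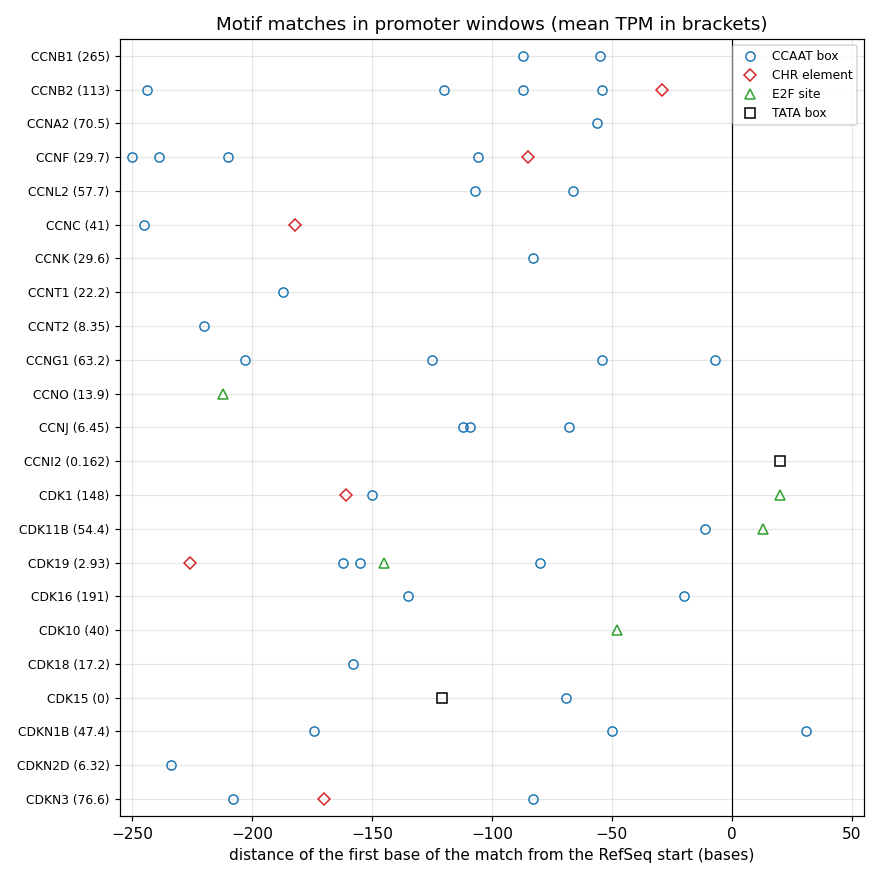
Motif matches by distance of their first base from the RefSeq start, in bases, for the 23 genes with a CCAAT box, CHR element, E2F or TATA match. Numbers in brackets are mean TPM, and the boxes of CCNB1 and CCNB2 at 87 and 55 or 54 bases lie almost above each other.

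Of the cell cycle CDKs, CDK4, CDK2 and CDK1 exceeded 100 TPM in every library, CDK6 was lower, and CDK3 could not be placed. CDK4, the partner of the D cyclins, had 229, 237 and 248 TPM in replicates 1, 2 and 3, or 238 ± 9.49 TPM (SD, n = 3). CDK6, its paralog, had 79.3, 65.4 and 62.8 TPM, with replicate 1 standing above the others. CDK4 lay above CDK6 in each library, with a log2 ratio of 1.78 ± 0.23 (SD, n = 3). CDK2 had 154, 150 and 151 TPM and CDK1 had 161, 139 and 144 TPM. These overlapped, and the log2 ratio of CDK1 to CDK2 was -0.04 ± 0.09 (SD, n = 3), with CDK1 higher in replicate 1 and lower in the other libraries (two-sided exact sign-flip permutation test, p = 0.5). By coverage CDK1 was below CDK2 in the mean, with a log2 ratio of -0.72 ± 0.09 (SD, n = 3). CDK3, a kinase of the exit from quiescence, was listed at 0 in all libraries. The row of TEN1-CDK3, a read-through transcript of CDK3 with its upstream neighbour, spans the whole of CDK3 on the same strand and had 6.59, 8.15 and 6.59 TPM, so reads of CDK3 may have been counted there and its 0 is not a level.

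CDKN2A had the highest TPM of the 55 genes. It had 293, 353 and 341 TPM in replicates 1, 2 and 3, or 329 ± 31.4 TPM (SD, n = 3), at the 97.3rd percentile of expressed genes. Replicate 1 was the lowest library, but still above every library of CCNB1. CDKN2A encodes both the INK4 inhibitor p16INK4a and, from another first exon and in another reading frame, p14ARF. The deposited row runs from 21967752 to 21995043 on the minus strand of chromosome 9 and thus covers both first exons. The first 30 coding bases of each are shown, since the row holds 1 value for both, with the start codon in capitals. In GENCODE v44 (GRCh38) they lie at chr9:21974798-21974827 in transcript CDKN2A-201 for p16INK4a, and at chr9:21994302-21994331 in CDKN2A-214 for p14ARF, both on the minus strand and 19504 bases apart.
p16INK4a: ATGgagccggcggcggggagcagcatggag
p14ARF: ATGgtgcgcaggttcttggtgaccctccgg

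Exon 2 is the same in both transcripts, from 21970902 to 21971208, and is 307 bases long. The 329 TPM of CDKN2A could not be divided between the transcripts here. By coverage, CDKN2A had 527 ± 49.9 (SD, n = 3) and was the 6th of the family, below CCNB1, CDK4, CDK2, CCNB2 and CCND1. Its antisense neighbour CDKN2B-AS1 had 2.27 TPM and shares 253 bp with the row.

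The other INK4 genes lay far below it. CDKN2C, which encodes p18, had 84.3, 84.8 and 87.4 TPM, above all libraries of CDKN2B and CDKN2D. CDKN2B, the neighbour of CDKN2A that encodes p15, had 9.71, 9.57 and 7.80 TPM, and CDKN2D, which encodes p19, had 6.55, 6.45 and 5.98 TPM. The log2 ratio of CDKN2A to CDKN2B was 5.04 ± 0.25 (SD, n = 3) and that of CDKN2C to CDKN2D 3.56 ± 0.09 (SD, n = 3). CDKN2B-AS1 spans the whole 6411 bp of the CDKN2B row on the opposite strand. The 4 rows, with all of CDKN2A and thus p14ARF included, summed to 394, 453 and 442 TPM, beside 309, 303 and 311 TPM for CDK4 and CDK6, the kinases that INK4 proteins bind. This order held by TPM with CDKN2A whole, and was reversed in each library by coverage, with 1044, 1130 and 993 for the 4 rows and 1880, 1813 and 1671 for the kinases. Without CDKN2A the other 3 rows summed to 101 ± 0.321 TPM (SD, n = 3).

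The CIP/KIP genes were at middle levels and close to each other. CDKN1B, which encodes p27, had 49.8, 47.1 and 45.2 TPM. CDKN1C, which encodes p57 and is imprinted in many tissues, had 45.1, 46.3 and 39.2 TPM, overlapping CDKN1B. CDKN1A, which encodes p21, had 27.5, 29.3 and 27.0 TPM, below both in each library. The log2 ratio of CDKN1A to CDKN1B was -0.74 ± 0.09 (SD, n = 3) by TPM and -2.76 ± 0.08 (SD, n = 3) by coverage. Together these genes summed to 119 ± 6.45 TPM (SD, n = 3). CDKN3, a phosphatase that removes the activating phosphate from CDKs and is no member of either inhibitor family, had 76.6 ± 2.42 TPM (SD, n = 3).

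**Figure D3:**
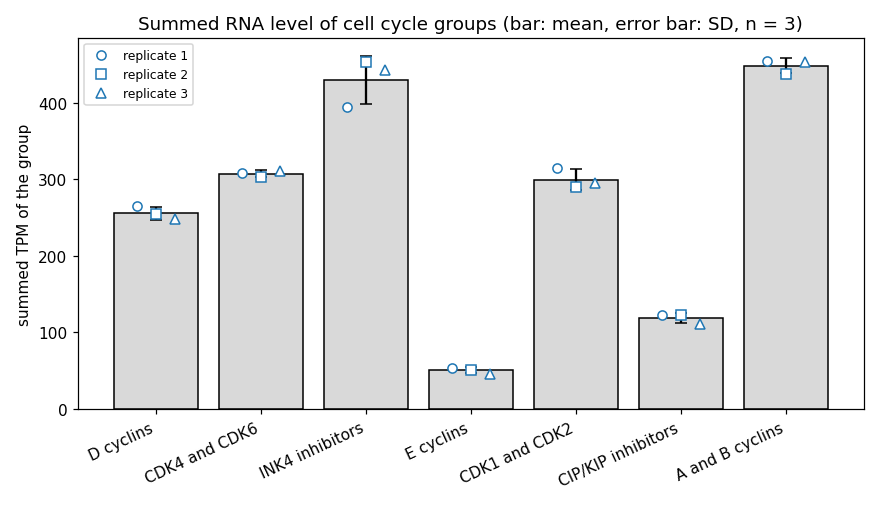
Summed TPM of cell cycle groups, with bars for the mean, error bars for the SD over 3 libraries and symbols for each library. The INK4 rows sum to 430 TPM, of which CDKN2A, p14ARF included, holds 329, and the A and B cyclins (CCNA2, CCNB1 and CCNB2) to 448 TPM.

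The CDKs and cyclins of transcription were all expressed, and none reached 100 TPM in every library. All 8 CDKs of this group reached 1 TPM in every library, with means from 2.93 TPM for CDK19 to 73.5 TPM for CDK9, and so did all 7 of their cyclins, from 8.35 TPM for CCNT2 to 57.7 TPM for CCNL2. CDK9, the kinase that releases paused RNA polymerase II, had 70.5, 78.1 and 71.8 TPM. Its cyclins CCNT1 and CCNT2 had 22.2 ± 1.84 and 8.35 ± 0.513 TPM (SD, n = 3), so CCNT1 was the higher in each library. CDK7 and CCNH, which form the CDK-activating kinase, had 52.5 ± 0.458 and 46.8 ± 1.09 TPM (SD, n = 3). The row of CCNH overlaps RASA1 on the opposite strand over 80453 bp. By coverage CDK7 and CCNH lay farther apart, at 285 ± 23.3 and 57.6 ± 3.50 (SD, n = 3). Their assembly factor MNAT1 had 12.5, 21.1 and 17.5 TPM, with a wider spread between libraries than either.

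CDK8 and CDK19 are alternative kinases of the Mediator complex, with CCNC as their cyclin. CDK8 had 12.4 ± 1.26 and CDK19 had 2.93 ± 0.283 TPM (SD, n = 3), beside a mean of 41.0 TPM for CCNC. The row of CDK19 shares 1911 bp with AMD1, a gene on the opposite strand that had 61.2 TPM. CDK12 and CDK13, the elongation kinases that pair with CCNK, had 29.5 ± 1.72 and 16.4 ± 1.56 TPM (SD, n = 3), beside 29.6 ± 0.799 TPM for CCNK. The row of CCNK overlaps SETD3 and CCDC85C on the opposite strand, which had 73.4 and 47.0 TPM. CDK11B and CDK11A, near-identical copies on chromosome 1 that act with CCNL1 and CCNL2 in splicing, had 54.4 ± 0.877 and 29.2 ± 2.18 TPM (SD, n = 3), and reads shared between the copies make the split uncertain. CCNL2, with 57.7 ± 0.358 TPM, was above CCNL1, with 39.7 ± 4.29 TPM (SD, n = 3), in each library.

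Among the remaining CDKs, CDK16 had the highest TPM. CDK16, a PCTAIRE kinase activated by CCNY, had 190, 191 and 193 TPM, one of the tightest triplets of the family, and lay above all libraries of CDK2. By coverage the order was reversed in each library, with 492, 498 and 444 for CDK16 and 871, 835 and 753 for CDK2. Its paralogs CDK17 and CDK18 had 10.1 ± 0.497 and 17.2 ± 1.29 TPM (SD, n = 3). The log2 ratio of CDK16 to CDK17 was 4.12 ± 0.08 (SD, n = 3). CDK5, best known from neurons, had 38.5 ± 1.90 TPM, while its activator CDK5R1 had 1.02 ± 0.140 TPM (SD, n = 3). CDK10 and its cyclin CCNQ were at nearly equal levels by TPM, with 40.0 ± 0.671 and 39.7 ± 2.12 TPM (SD, n = 3), and their libraries overlapped. By coverage they did not overlap, with CDK10 between 87.8 and 99.2 and CCNQ between 60.2 and 77.8. CDK14, a partner of CCNY at the membrane, had 12.9 ± 1.15 TPM and CDK20 had 8.34 ± 0.300 TPM (SD, n = 3). CDK15 was listed at 0 in all libraries.

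The other cyclins ran from 73.1 TPM for CCNI to 0.162 TPM for CCNI2. The row of CCNI2 shares 3585 of its 6959 bp with SEPT8, a gene on the opposite strand that had 20.4 TPM. CCNI had 82.2, 69.0 and 68.0 TPM, with replicate 1 above the rest. CCNG1 had 63.2 ± 5.59 TPM, while CCNG2 had 3.21 ± 0.162 TPM (SD, n = 3), and their log2 ratio was 3.93 ± 0.14 (SD, n = 3). CCNY had 27.1 ± 1.45 TPM, CCNO, known for its role in cells with many cilia, 13.9 ± 0.838 TPM and CCNJ 6.45 ± 0.376 TPM (SD, n = 3). Relatives outside the symbol rule included CCNYL1, with 13.1 ± 1.23 TPM, and CNTD2, an older symbol of cyclin P, with 3.18 ± 0.468 TPM (SD, n = 3).

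Paralogs were compared inside each library as log2 ratios, in 17 pairs taken by family. The pair of CDK14 and CDK15 was left out because CDK15 was at 0. In 16 of 17 pairs the ratio had the same direction in all 3 libraries, and CDK1 to CDK2 was the exception. For each of the 16, the exact permutation test by sign flips, which is two-sided, gave 0.25, and 0.266 after Benjamini-Hochberg adjustment over 17 pairs. With 3 libraries, 0.25 is the smallest p that this exact test allows, so none could pass a threshold of 0.05. In 11 of 17 pairs the mean ratio exceeded 1 on the log2 scale in either direction, and the SD ran from 0.01 to 0.25. The lowest SD was that of CCND1 to CCND2, where the pseudocount narrows it.

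**Figure D4:**
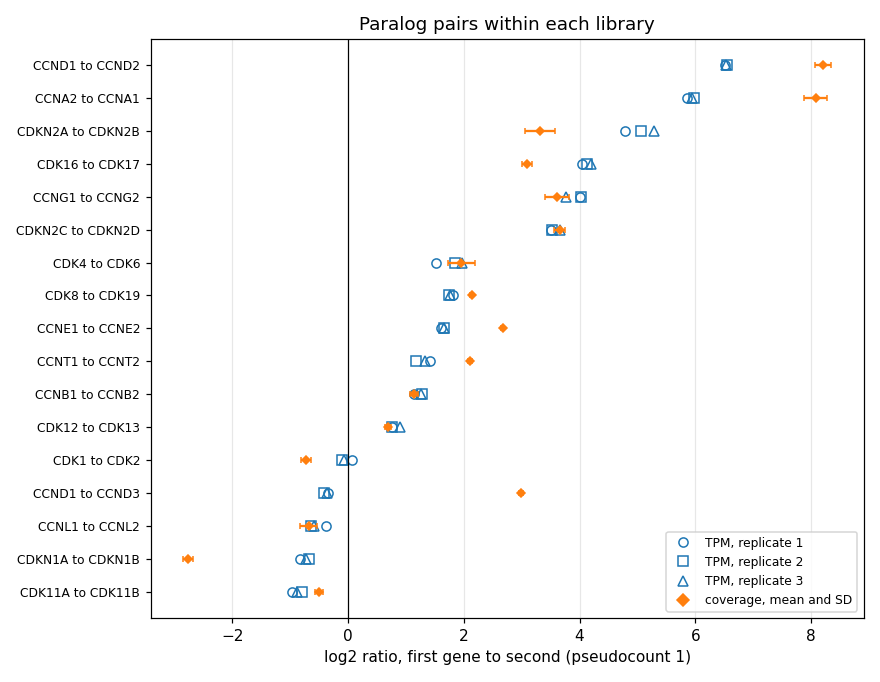
Log2 ratio within each library of the first to the second gene of 17 paralog pairs, with a pseudocount of 1. Blue symbols are the TPM ratios in each library and orange diamonds the ratio by coverage, mean and SD of 3 libraries. CCND1 to CCND3 changes sides, from -0.38 by TPM to 2.99 by coverage.

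Coverage, the mean read depth over a gene, put several genes at another place than TPM did. Both are deposited for the same rows, and the ratio of coverage to FPKM was set against its highest value in the library. For 20 of the 53 genes above 0, that share was at least 0.9, and these included CDK4, CCNB2, CCND1, CCNA2 and CDKN1B. For 13 it was below 0.5. These counts were not set beside those of all gene rows, so they describe the family and do not set it apart. The lowest shares were 0.0323 for CCNY, 0.0557 for CCNB3, 0.0953 for CCND3 and 0.184 for CDK14. CCND3 was the 7th of the family by TPM but the 31st by coverage, and CCNY the 34th by TPM but the 49th by coverage. What sets this share was not tested.

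**Figure D5:**
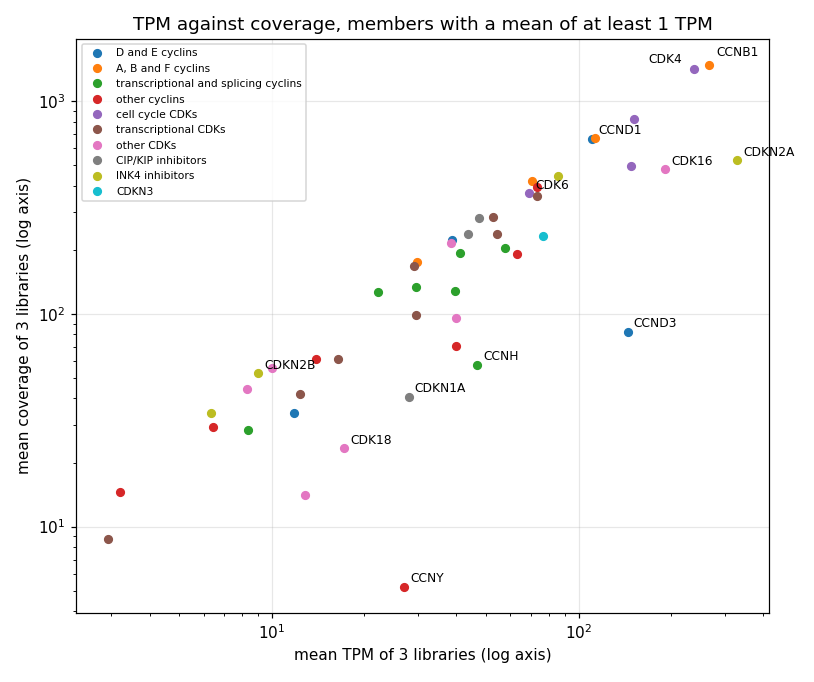
Mean coverage against mean TPM of 3 libraries, both on log axes, for the 49 genes whose mean reached 1 TPM, coloured by role. CDK4, CCNB1 and CCND1 lie on the upper edge, while CCND3 and CCNY lie far below it.

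Of 41 genes listed because they work with this family, 40 reached 1 TPM and 36 reached 10 TPM in every library, beside 59.5% and 40.4% of protein-coding rows, with CDK5R1 as the exception at the lower limit. CKS2 and CKS1B, small subunits that bind CDKs, had 512 ± 33.9 and 324 ± 14.3 TPM (SD, n = 3), and CKS2 thus exceeded every cyclin and CDK. The pocket protein genes RB1, RBL1 and RBL2 had 27.2 ± 3.53, 10.8 ± 0.588 and 14.8 ± 1.50 TPM (SD, n = 3), and RB1 is the target through which CDK4 and CDK6 act. All 10 E2F and DP genes reached 1 TPM, led by TFDP1 with 150 ± 9.56 TPM, E2F1 with 63.4 ± 2.92 TPM and E2F4 with 62.9 ± 1.53 TPM (SD, n = 3).

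The regulators of mitotic entry were present on both sides. CDC25B, a phosphatase that activates CDKs, had 81.9 ± 4.02 TPM, and PKMYT1 and WEE1, kinases that hold CDK1 inactive, had 103 ± 2.85 and 41.6 ± 4.99 TPM (SD, n = 3). MYBL2 and FOXM1, the factors that switch on mitotic genes, had 146 ± 3.89 and 109 ± 4.88 TPM (SD, n = 3). CDC20, which directs the destruction of B cyclins, had 272 ± 4.83 TPM and lay near CCNB1, with their libraries overlapping. SKP2, which directs the destruction of p27, had 113 ± 2.13 TPM (SD, n = 3). The proliferation genes PCNA, TOP2A and MKI67 had 200.2 ± 4.68, 169 ± 7.96 and 62.5 ± 5.01 TPM (SD, n = 3).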

How the data were processed

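The 3 RNA-seq libraries belong to 1 condition. The submitters' processing notes name FastQC 0.11.8, Trim Galore 0.6.2, STAR 2.6.1a and StringTie, and the build GRCh38. The annotation and the strand setting are not given in the sources used here, so reads of overlapping genes may have been mixed. The deposited tables give TPM, FPKM and coverage per gene, with TPM scaled to the same sum in each library. Coverage as deposited is not scaled for library size. The depth is unknown, and the SD between the 3 libraries stands for precision.

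Tables were matched on gene and coordinates, giving 43389 rows, of which 39320 lie on the assembled chromosomes. Another 2 rows that match the symbols (CDK7 and CDKN1C on alternate references) were left out. TPM was used as deposited and logged with a pseudocount of 1. Every gene found by the symbol rule is reported, with lists of pathway genes and markers. The symbol rule uses no values, but the gene family, the lists and the motifs were chosen with earlier results of these data known. The range calculation was tested on simulated data, and the sign-flip calculation on small examples with known answers. Python 3.11.15, numpy 2.4.6, pandas 2.3.3 and matplotlib 3.10.9 were used. The alternatives were other minimum levels, pseudocounts, units and scalings, and leaving out each replicate. The value of 1 listed pathway gene is not reported here.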

Additional observations from a re-analysis of the deposited data

How the results depend on the processing

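The number of genes with at least 1 TPM in every library was 49 under each scaling, and 53 reached a minimum of 0.1 TPM. At least 10 TPM was reached by 41 with median-of-ratios scaling and by 43 after rescaling without mitochondrially encoded genes. That rescaling and the lower minimum can only raise a count, so neither is a check of it. No gene had a log2 range above 1 with median-of-ratios scaling, and 1 gene, CCNA1, did so with a pseudocount of 0.1. The median level over the 55 genes was 38.5 TPM. It was 48.2 TPM after rescaling without mitochondrially encoded genes, which raises every gene by nearly the same factor, and from 37.3 to 38.0 TPM with each replicate left out. Of the 55 single levels, 50 moved by more than 1 SD in that rescaling, and none did with median-of-ratios scaling. Leaving out 1 of 3 libraries cannot move a mean by 1 SD, widen a range or lower a count of genes above a minimum, so it is no check of these. The median percentile of 73.7 became 80.2 when the limit on the mean was 0.1 TPM, which adds low genes, and 74.5 by coverage. The log2 ratio of CCND1 to CCND3 reversed to 2.99 by coverage, and the cause was not tested. The log2 ratio of the summed INK4 rows to summed CDK4 and CDK6, 0.48 by TPM, reversed to -0.76 by coverage, for which the cause was not tested, and to -1.61 without CDKN2A, both chosen after seeing the data. No paired analysis was possible because no second group exists. The unknown depth limits the genes below 1 TPM and those listed at 0.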
